A study of Mus musculus with 7 samples.

Results

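ATAC-seq was used to compare chromatin accessibility between IL-4+ CD4+ T cells of the lung and IL-4+ CD4+ T cells of the mediastinal lymph nodes, which drain the lung. The comparison took 5 of the 7 libraries of the series, 3 of lung IL-4+ cells and 2 of lymph node IL-4+ cells, chosen from the tissue and reporter that the labels give, and covered all 113820 regions of the table. All IL-4+ cells came from C57BL/6 mice of the IL-4-4get GFP reporter line that received 500 L3 larvae of Nippostrongylus brasiliensis under the skin and were killed on day 8, and 50000 GFP+ cells made up each library. The mice of both tissues therefore shared strain, reporter, infection and day, and no uninfected mice were compared. The sort kept CD3ε+ CD4+ cells that lacked CD8, B220, NK1.1, CD11b, CD11c and Ter119. The study describes 2 to 3 mice per group and a single experiment. The labels do not tie a library to a mouse, and limma p-values rest on the spread within groups over all 7 libraries. The 2 remaining libraries held lung IFNγ+ cells, sorted as YFP+ cells from IFN-gamma-GREAT reporter C57BL/6 mice at the same day of the same infection. They entered the model only to estimate the spread, and their values are given for reference.

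Helminth infection gives rise to IL-4-expressing CD4+ T cells of different kinds. T follicular helper (Tfh) cells stay in lymph nodes, where they help B cells through IL-21, CD40 ligand and IL-4, and depend on the factors Bcl6 and TCF-1 and the follicle-homing receptor CXCR5. T helper 2 (Th2) effector cells enter tissues such as the lung, release IL-5 and IL-13, and respond to the alarmin IL-33 through its receptor ST2, which is encoded by Il1rl1. The 4get reporter marks cells that transcribe Il4 and does not separate these subsets. In ATAC-seq, a transposase cuts open chromatin, and the density of its insertions measures how accessible a promoter or enhancer is. A library averages over its cells, so a larger share of cells with an open region and a more open region per cell cannot be told apart.

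Accessibility is given as normalized insertions per kilobase. A region was called different when its limma adjusted p was below 0.05 and the tissues differed by 3-fold or more. By this rule 1191 of 113820 regions, 1.05%, were more accessible in lung IL-4+ cells, and 791, 0.695%, were more accessible in lymph node IL-4+ cells. Median fold changes were 3.95 and 4.31. In the 1191 lung regions, the median density was 2.65 and 3.31 in lymph node replicates 1 and 2, and 13.9, 11.8 and 10.7 in lung replicates 1 to 3. In the 791 lymph node regions, the median density was 12.6 and 15.2 in lymph node replicates 1 and 2, and 3.44, 3.14 and 2.94 in lung replicates 1 to 3. The tissues did not overlap in any called region, which was also so for 13.6% of all regions in the lung direction and 14.3% in the lymph node direction. The lung IFNγ+ libraries had median densities of 9.0 and 9.93 in the lung regions and 3.85 and 4.29 in the lymph node regions. The counts moved with the libraries and the model. The 5 IL-4+ libraries alone gave 639 and 425 calls, of which 638 and 424 were among the regions called above. Omitting lung IL-4+ replicate 2 gave 250 and 125, omitting lymph node replicate 2 gave 2308 and 297, and omitting lung IL-4+ replicate 1 gave 926 and 1144, with more calls in lymph node than in lung. With the replicate number of all 7 libraries as a block, limma called 0 and 0. At an unadjusted limma p under 0.05 and the same fold there were 2859 and 1934 regions.

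**Figure D1:**
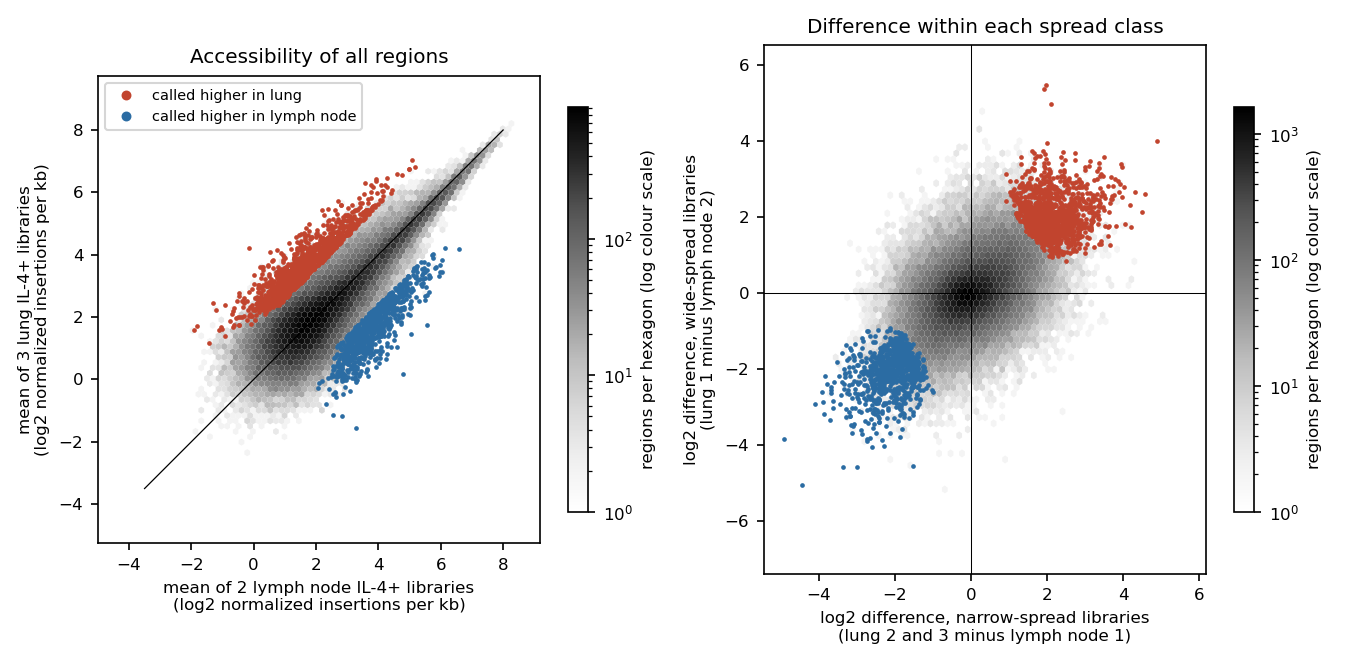
Left, mean log2 normalized insertions per kb of each of 113820 regions in the 2 lymph node IL-4+ libraries (x axis) and the 3 lung IL-4+ libraries (y axis), with the line of equality. Right, the lung minus lymph node log2 difference of each region in the 3 narrow-spread libraries (x axis) and in the 2 wide-spread libraries (y axis). Grey hexagons count regions on a log colour scale, and points are the 1191 regions called higher in lung and the 791 called higher in lymph node, which lie on opposite sides of both plots.

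The sequences of some called regions are shown first, as the central 200 bases on the plus strand of GRCm38. Capitals mark matches on either strand to TGANTCA (bZIP factors such as AP-1), AGATAA (factors of the GATA family), AACCACA (RUNX), ATCAAAG (TCF/LEF), ATGCAAAT (POU), AGGAAGT (ETS), AGGTCA (nuclear receptor half-site) or CAGCTG (E-box). A match is a description of the letters and not a binding site. The first set holds lung regions, namely the region with the largest fold change, near Nedd9, a region near Kdr, the regions with the largest fold change at Il1rl1 and Rora, and regions near Smndc1 and Itprid2. The last pair was chosen after values were seen, for large fold changes among regions that hold both a bZIP and a GATA match.

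near Nedd9, chr13:41513284-41513483: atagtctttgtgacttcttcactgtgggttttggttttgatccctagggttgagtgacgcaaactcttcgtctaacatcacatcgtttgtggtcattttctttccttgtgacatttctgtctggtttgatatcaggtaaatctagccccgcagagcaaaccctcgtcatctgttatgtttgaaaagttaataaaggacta
near Kdr, chr5:75826499-75826698: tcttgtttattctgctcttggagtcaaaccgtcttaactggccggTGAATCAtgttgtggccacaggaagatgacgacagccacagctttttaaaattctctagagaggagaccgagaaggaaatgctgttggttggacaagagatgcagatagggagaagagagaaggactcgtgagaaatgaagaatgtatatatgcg
Il1rl1 intron, chr1:40448419-40448618: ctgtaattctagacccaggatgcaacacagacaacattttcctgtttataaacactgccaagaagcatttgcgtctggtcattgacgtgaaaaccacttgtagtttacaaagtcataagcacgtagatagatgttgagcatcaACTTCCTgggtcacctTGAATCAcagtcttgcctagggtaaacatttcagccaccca
Rora intron, chr9:68969477-68969676: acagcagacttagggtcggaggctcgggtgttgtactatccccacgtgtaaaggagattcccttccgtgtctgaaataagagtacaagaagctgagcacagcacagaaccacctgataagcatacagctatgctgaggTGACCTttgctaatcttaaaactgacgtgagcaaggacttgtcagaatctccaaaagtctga
near Smndc1, chr19:53405850-53406049: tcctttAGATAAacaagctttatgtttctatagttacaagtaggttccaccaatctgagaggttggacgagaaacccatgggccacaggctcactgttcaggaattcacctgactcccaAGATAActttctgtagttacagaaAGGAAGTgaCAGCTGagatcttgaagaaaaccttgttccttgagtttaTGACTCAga
near Itprid2, chr2:79576613-79576812: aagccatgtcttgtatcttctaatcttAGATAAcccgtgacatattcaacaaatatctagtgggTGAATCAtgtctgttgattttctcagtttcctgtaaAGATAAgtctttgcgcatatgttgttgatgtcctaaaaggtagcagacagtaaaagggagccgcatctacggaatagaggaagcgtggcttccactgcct

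The second set holds lymph node regions. They are the strongest, near Emx2 and in an intron of Scfd2, and the called region at Cxcr5. Regions at Magi2 and near Zfp36l1 are among the 10 with the largest fold changes and were added after values were seen because each holds a TCF/LEF match.

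near Emx2, chr19:59650639-59650838: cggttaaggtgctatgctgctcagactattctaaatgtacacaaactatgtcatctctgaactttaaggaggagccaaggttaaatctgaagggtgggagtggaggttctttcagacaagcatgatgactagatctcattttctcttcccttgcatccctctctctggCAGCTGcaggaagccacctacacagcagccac
Scfd2 intron, chr5:74476676-74476875: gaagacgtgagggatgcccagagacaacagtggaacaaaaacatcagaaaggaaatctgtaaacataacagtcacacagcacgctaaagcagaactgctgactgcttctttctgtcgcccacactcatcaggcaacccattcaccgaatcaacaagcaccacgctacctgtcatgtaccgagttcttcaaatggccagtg
Cxcr5 intron, chr9:44533400-44533599: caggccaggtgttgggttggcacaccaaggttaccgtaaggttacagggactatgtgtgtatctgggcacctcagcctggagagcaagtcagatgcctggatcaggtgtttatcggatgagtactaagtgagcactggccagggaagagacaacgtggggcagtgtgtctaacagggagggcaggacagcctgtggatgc
Magi2 intron, chr5:20087180-20087379: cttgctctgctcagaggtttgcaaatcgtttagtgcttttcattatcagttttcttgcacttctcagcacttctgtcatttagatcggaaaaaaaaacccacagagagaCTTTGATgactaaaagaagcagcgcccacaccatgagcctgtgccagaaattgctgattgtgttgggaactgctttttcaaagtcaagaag
near Zfp36l1, chr12:80017604-80017803: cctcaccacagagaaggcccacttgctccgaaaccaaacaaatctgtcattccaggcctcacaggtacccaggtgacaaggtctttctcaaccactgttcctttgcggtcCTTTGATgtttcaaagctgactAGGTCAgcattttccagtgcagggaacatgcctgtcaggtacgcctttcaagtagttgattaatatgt

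The largest change toward lung lay 26090 bp from the start of Nedd9, in an exon of a non-coding transcript. Nedd9 encodes an adaptor of integrin and chemokine signalling in lymphocytes. The region (chr13:41513080-41513687) had densities of 0.553 and 1.45 in lymph node replicates 1 and 2 and of 23.1, 18.3 and 14.9 in lung replicates 1 to 3. The log2 fold change was 4.37 (SE 0.41, limma adjusted p = 0.00218). A second lung region lay 151859 bp from Kdr (chr5:75826302-75826896), with 0.929 and 2.25 in lymph node and 23.7, 15.4 and 13.4 in lung. It was 1 of 4 called regions in 36.4 kb, and all 4 regions of the table in that stretch were called. An intron region of Map2k5 (chr9:63275064-63275529), a kinase gene, had the smallest standard error among the 10 largest lung changes. Its densities were 1.29 and 1.04 in lymph node and 10.0, 14.1 and 12.5 in lung (10.4-fold, limma adjusted p = 0.00218). The IFNγ+ libraries had 20.2 and 23.7 there.

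Some of the largest lung changes rested on few insertions. The intron region of Ints4 and the promoter region of Itgb5 each had a rebuilt count of 0 insertions in lymph node replicate 2, a lower bound taken from the rank of its value among the distinct values of the library. Lymph node replicate 1 had 34 insertions at Ints4 and 21 at Itgb5, and the lung libraries had between 41 and 90 at both. Their log2 fold changes were 3.75 (SE 0.88, limma adjusted p = 0.0498) and 3.52 (SE 0.79, limma adjusted p = 0.0422). The Ints4 region passed in 7 of 22 other settings and the Itgb5 region in 7 of the 21 that tested it. The Nedd9, Kdr and Map2k5 regions were each called in 18 of 22, and the other 4 settings called no region at all. The remaining lung regions among the 10 largest lay in introns of Gm49339 beside Lilrb4a, Synj2, Lamc1 and Cnnm2 and near Elf4, with fold changes between 10.1 and 11.3. Low counts also occurred among these. The region beside Lilrb4a had rebuilt counts of 6 and 6 in lymph node and was called in 6 of 21 other settings. The Synj2 region had 26 and 1 in lymph node and was called in 9 of 22.

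The largest changes toward lymph node lay far from promoters. A region 192367 bp from Emx2 (chr19:59650514-59650964) had densities of 6.69 and 14.3 in lymph node and 0.431, 0.809 and 0.115 in lung, with a log2 fold change of -4.84 (SE 0.92, limma adjusted p = 0.0233). An intron region of Scfd2 (chr5:74476549-74477002) had 24.7 and 30.5 in lymph node and 2.12, 1.13 and 0.591 in lung (log2 fold change -4.62, SE 0.52, limma adjusted p = 0.00342). Every lymph node library exceeded every lung library at both regions, as at every region called higher in lymph node. The rebuilt lung counts near Emx2 were as low as 3 insertions. An intron region of Farsb (chr1:78422567-78423031), which encodes a subunit of a tRNA synthetase, had 31.0 and 35.9 in lymph node against 3.55, 1.80 and 3.15 in lung. A coding exon of Flt3, a cytokine receptor of blood progenitors, held a region (chr5:147340951-147341395) with 24.8 and 23.3 in lymph node and 3.15, 2.01 and 1.36 in lung. The region 95290 bp from Zfp36l1, which encodes an RNA-binding protein that promotes mRNA decay, had 20.6 and 17.5 in lymph node and 1.93, 0.737 and 2.74 in lung. The other regions among the 10 largest lay in introns of Magi2, Acvr1 and Ssbp2 and near Svep1 and Tex13c2, with fold changes between 11.4 and 16.2. Rebuilt counts in lung replicates 1 to 3 were 2, 16 and 15 at Acvr1 and 3, 19 and 8 near Svep1. The Scfd2, Farsb and Flt3 regions were each called in 18 of 22 other settings. The rest were called in between 8 (Tex13c2) and 17 (Zfp36l1), with 11 at Acvr1 and 12 near Emx2.

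**Figure D2:**
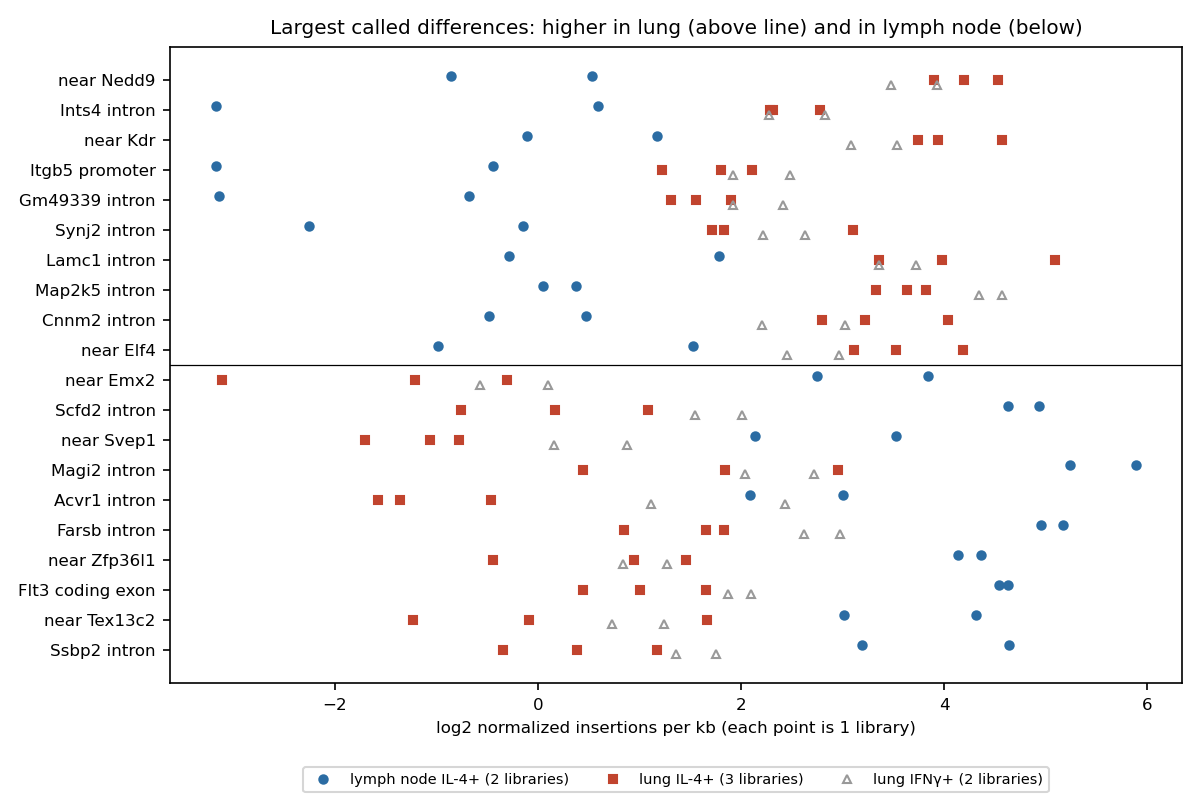
Log2 normalized insertions per kb (x axis) of the 10 strongest regions toward lung (above the line) and the 10 toward lymph node (below) in each library. Circles are the 2 lymph node IL-4+, squares the 3 lung IL-4+ and triangles the 2 lung IFNγ+ libraries. The circles and squares of a row do not overlap, which was so for every called region.

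Called regions were seldom at promoters. Regions within 1 kb of a transcription start made up 23.1% of all regions, 7.14% of the lung regions and 5.44% of the lymph node regions. Introns held 45.7% of the lung regions and 56.3% of the lymph node regions against 40.8% of all, and intergenic space held 39.0% and 27.7% against 26.7%. The median distance to the nearest start was 25737 bp for lung regions, 34878 bp for lymph node regions and 13504 bp for all. At protein-coding promoters, 45 regions were higher in lung and 18 in lymph node among 21332.

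Promoters that were more open in lung included those of cytokine, receptor and glycan genes. The Gcnt1 promoter region, of an enzyme that builds branched O-glycans used in selectin binding, had densities of 1.24 and 1.93 in lymph node and 16.3, 11.9 and 14.4 in lung (log2 fold change 3.19, SE 0.30, limma adjusted p = 0.00218). At Il1rl1, 2 promoter regions were among the 10 largest, and the higher of them (chr1:40428883-40429664) had 1.54 and 2.53 in lymph node and 11.4, 16.0 and 19.0 in lung. The Nlrp3 promoter region, of an inflammasome sensor, had 0.532 and 0.727 in lymph node and 4.99, 3.65 and 4.18 in lung. All lung libraries lay above all lymph node libraries at these promoters, as at every region called higher in lung. The Lilr4b promoter region, of a receptor of the leukocyte immunoglobulin-like family, rose 6.05-fold, that of Klrk1, which encodes the receptor NKG2D, 5.98-fold and that of Serpina3f, a protease inhibitor, 5.34-fold. The Ifng promoter region had 1.44 and 2.54 in lymph node, 14.0, 16.2 and 11.3 in lung IL-4+ and 48.5 and 51.7 in lung IFNγ+ libraries.

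In the other direction, the promoter region of Klhl4 on chromosome X had the largest fold change, with 12.4 and 15.0 in lymph node and 2.29, 1.37 and 2.66 in lung (log2 fold change -2.75, SE 0.39, limma adjusted p = 0.00729). The Susd4 promoter region, of a complement regulator, had 45.8 and 53.3 in lymph node and 13.2, 8.79 and 7.45 in lung. A promoter region of Tcf12, which encodes the E protein HEB, had 11.5 and 11.4 in lymph node and 3.14, 1.71 and 3.98 in lung (log2 fold change -2.05, SE 0.41, limma adjusted p = 0.0278). Slc43a1, an amino acid transporter gene, Nt5c2, which encodes a nucleotidase, Hsdl1, Zcchc12, Tcf25, Akap6 and 4921504E06Rik had the other promoter regions among the 10 largest, with fold changes between 3.89 and 5.05.

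Some regions that were more open in lung lay in groups, while most stretches held a single called region. With called regions joined across gaps of up to 25 kb, the 1191 lung regions formed 883 stretches. Of these, 704 held a single called region, and 64 held 3 or more, with 21.6% of all lung calls. The 791 lymph node regions formed 722 stretches, of which 663 held a single called region. Another 7 held 3 or more, with 3.03% of the lymph node calls. The directions differ in their number of calls, and no share over all regions was computed. Stretches were defined by their called regions, so the counts of calls inside them partly follow from that. The longest lung stretch ran over Il1rl2, Il1rl1 and Il18r1 (chr1:40358765-40467711), where 22 of 39 regions were called higher in lung and 0 in lymph node by limma, and 38 of the 39 had a positive fold change. Its summed accessibility, in normalized insertions over all 39 regions, was 80.4 and 78.3 in lymph node and 261.2, 275.2 and 296.7 in lung. Of its 22 called regions, 5 held a bZIP and 5 a GATA match. Other lung stretches held 7 called regions at Dusp5, a phosphatase of MAP kinases, and 6 each near Smndc1, at Lilr4b and Lilrb4a, at Eed and at Bhlhe40, a transcription factor of effector and tissue-resident T cells. At Bhlhe40 the summed accessibility was 33.7 and 55.5 in lymph node and 155.0, 126.4 and 110.1 in lung.

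The largest lymph node stretch lay in introns of Lpp (chr16:24836470-24860874), where 5 of 8 regions were called. The summed accessibility was 58.6 and 64.8 in lymph node and 15.2, 10.4 and 11.4 in lung. Magi2 held 4 of 6 regions in 25.6 kb, with sums of 34.2 and 54.8 in lymph node and 7.38, 6.19 and 3.54 in lung. At Hbs1l, the gene beside Myb, 3 of 9 regions were called and all 3 held a TCF/LEF match. Sums there were 47.9 and 55.4 in lymph node and 21.8, 18.6 and 16.1 in lung.

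For each of 17021 protein-coding genes, accessibility was also summed over all regions in the gene and 10 kb on each side. By limma at an adjusted p below 0.05, 113 genes, 0.664%, had a higher sum in lung and 71, 0.417%, had a higher sum in lymph node. The median log2 difference of all genes was -0.09. These gene calls moved with the libraries used. Median centring gave 147 and 49. The 5 IL-4+ libraries alone gave 4 and 1, and leaving out lung IL-4+ replicate 2, lung IL-4+ replicate 3 or either IFNγ+ library left 3 or 4 genes higher in lung and 0 or 1 higher in lymph node. Leaving out lymph node replicate 2 gave 198 and 117, lymph node replicate 1 gave 105 and 54, and lung IL-4+ replicate 1 gave 87 and 65. A gene was also described by its called regions, and 660 genes, 3.88%, had at least 1 region called higher in lung, 564, 3.31%, had 1 called higher in lymph node and 44 had both. Neighbouring genes can share regions, so that Il5 and Rad50, Csf2 and Il3, Il1rl1, Il18r1 and Il18rap, Klrk1 and Klrd1, and Lilr4b, Lilrb4a and Gm49339 are not independent.

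The genes with the largest sums toward lung included Myo16, Lilr4b, Dnase1, Gas7, Uts2, Gldc, Il1rl1 and Pparg. Myo16, an unconventional myosin gene, had sums of 11.3 and 14.4 in lymph node and 82.7, 52.5 and 46.4 in lung (4.60-fold, limma adjusted p = 0.0172). Lilr4b had 12.8 and 13.2 in lymph node and 54.6, 51.0 and 62.3 in lung, and was called in 12 of 13 other settings. Gas7, a gene of a membrane-shaping protein, had 23.7 and 14.3 in lymph node and 65.3, 72.4 and 63.0 in lung, and 119.1 and 111.5 in the IFNγ+ libraries. The genes with most regions called higher in lung were Il1rl1 with 11 of 23, Rora with 11 of 108, Atxn1 with 10 of 81, Wwox with 8 of 100 and Babam2 with 6 of 26. Dusp5, Itgb3, Itpr1, Myo16 and Osbpl3 were among the genes with 5. Itgb3 encodes an integrin chain, and its sum was 95.9 and 87.7 in lymph node and 201.1, 238.0 and 241.4 in lung.

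Among genes with higher sums in lymph node, Sgpp2, which encodes a phosphatase of sphingosine 1-phosphate, had the largest difference. Its sums were 22.7 and 22.5 in lymph node and 3.34, 3.25 and 3.19 in lung (6.93-fold, limma adjusted p = 0.00517), and its 1 called region was the intron region of the neighbouring Farsb described above. Mef2c, a transcription factor gene of lymphoid and myeloid cells, had sums of 74.1 and 115.8 in lymph node and 38.3, 23.3 and 26.3 in lung. Of its 14 regions, 3 intron regions were called, and the strongest (chr13:83565872-83566574) had densities of 27.1 and 40.2 in lymph node and 5.59, 4.29 and 5.06 in lung (log2 fold change -2.74, SE 0.26, limma adjusted p = 0.00242). Dpp6, Lhcgr, Gm21905, Shisa7, Padi4, Ispd and Prlr, which encodes the prolactin receptor, were also among the largest differences, at between 2.83-fold and 5.11-fold. The genes with most regions called higher in lymph node were Arid1b, a subunit of a chromatin remodelling complex, and Lpp, with 7 each. Magi2 had 5 and Asap1, Immp2l and Stk39 had 4 each, while Aff3, Cmss1 and Coro2b were among the genes with 3. At Arid1b the sum was 418.8 and 399.7 in lymph node and 235.9, 218.2 and 236.5 in lung.

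Gene lists were read against these background shares. The list of 10 T cell identity genes had 0 gene sums called in either direction by limma, and the lowest limma adjusted p among them was 0.705. Its median log2 difference was -0.01, and summed accessibility over the list was between 1940 and 3042 normalized insertions in all 5 IL-4+ libraries. The largest differences in the list were 0.25 at Zap70 and -0.15 at Cd247, both genes of T cell receptor signalling. Of the 23 Th2 effector genes, 8 had a higher sum in lung and 0 in lymph node, with a median of 0.69. These were Pparg, Il1rl1, Csf2, Il3, Plac8, Il5, Rad50 and Ccr8. Il5 passed in 4 of 12 other settings, and the rest in between 4 (Il3) and 10 (Pparg) of 13. Of the 23 genes, 9 had at least 1 region called higher in lung, while 0 had 1 called higher in lymph node by limma.

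Pparg, a nuclear receptor of lipid metabolism, had sums of 23.0 and 23.1 in lymph node and 83.6, 72.2 and 90.6 in lung (3.55-fold, limma adjusted p = 0.00895). The IFNγ+ libraries had 33.1 and 40.6. Its strongest region, in an intron (chr6:115440497-115440990), had densities of 2.57 and 4.51 in lymph node, 31.5, 28.7 and 34.4 in lung and 11.2 and 17.2 in the IFNγ+ libraries. Every lung IL-4+ library was above every other library there. In the type 2 cytokine locus on chromosome 11, Il5 had 4 and Rad50 3 called regions, 1 of them shared. An intergenic region beside Il5 (chr11:53726580-53727038) had densities of 1.54 and 1.87 in lymph node and 8.51, 10.8 and 8.84 in lung. A Rad50 intron region (chr11:53662808-53663583), in the gene that holds the locus control region of Il4, Il5 and Il13, had 9.67 and 13.6 in lymph node and 38.3, 40.3 and 37.4 in lung. Il13 had 3 of 9 regions called higher in lung. Its sum did not pass the threshold, with 59.4 and 40.7 in lymph node and 85.3, 105.9 and 102.5 in lung (limma adjusted p = 0.0688).

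The 2 cytokine genes Csf2, which encodes GM-CSF, and Il3 lie side by side. Csf2 had sums of 9.46 and 7.84 in lymph node and 22.1, 25.02 and 23.2 in lung (2.72-fold, limma adjusted p = 0.0195), and a region near Il3 (chr11:54271382-54271898) rose 5.004-fold. Ccr8, a chemokine receptor gene of Th2 cells, had 79.8 and 72.7 in lymph node and 123.7, 153.4 and 155.5 in lung with no called region. The Th2 list was not uniform, with a positive difference at 18 of 23 genes. Hpgds, which encodes a prostaglandin D2 synthase, had a log2 difference of -1.07 (limma adjusted p = 0.0701) and Cysltr1, a leukotriene receptor gene on chromosome X, one of 1.32 (limma adjusted p = 0.223). Neither passed the threshold. Bhlhe41, Ptgdr2, Il17rb and Calcrl also had negative differences, between -0.41 and -0.31, and were not called. Gata3, at 0.37 (limma adjusted p = 0.520), and Il4, at 0.30 (limma adjusted p = 0.570), were not called either.

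At Il1rl1 the gene sum was 45.5 and 39.9 in lymph node, 116.1, 142.3 and 162.5 in lung IL-4+ and 103.6 and 110.8 in IFNγ+ libraries. The region with the largest fold change lay in an intron (chr1:40448290-40448748, the sequence shown above with a bZIP and an ETS match). Its densities were 0.303 and 0.920 in lymph node and 4.59, 5.03 and 6.10 in lung. A region 2169 bp from the nearest start (chr1:40427115-40427687) was more open, with 1.98 and 4.67 in lymph node, 25.7, 23.3 and 28.8 in lung IL-4+ and 8.31 and 12.6 in IFNγ+ libraries. The latter region separated the lung IL-4+ libraries from all others, while at the former the IFNγ+ libraries had 5.09 and 5.72.

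Of the 23 Th1 and cytotoxic genes, 4 had a higher sum in lung IL-4+ cells and 0 in lymph node by limma, with a median of 0.56. The 4 were Gzmb, the gene of granzyme B, Il18rap and Il18r1, the receptor chains for IL-18, and Klrg1, a receptor of effector cells. They passed in between 4 (Klrg1) and 7 (Il18rap) of 13 other settings. Gzmb had only 2 regions, with sums of 2.25 and 2.43 in lymph node and 9.55, 11.2 and 11.5 in lung, and 14.0 and 16.2 in the IFNγ+ libraries. At least 1 region was called higher in lung at 10 of the 23 genes, and 0 genes had 1 called higher in lymph node by limma. Runx3 had 3 such intron regions, and the strongest (chr4:135161395-135161866) had 2.69 and 5.04 in lymph node and 23.6, 24.2 and 23.0 in lung IL-4+. Tbx21, which encodes T-bet, had 1 intron region with 3.97 and 2.32 in lymph node and 11.5, 14.7 and 15.6 in lung, and its sum did not pass the threshold (limma adjusted p = 0.318).

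The 25 tissue residency and migration genes had 5 higher sums in lung and 0 in lymph node by limma, with a median of 0.30. They were Rgs1, a regulator of chemokine receptor signalling, Ccr2, a chemokine receptor, the transcription factor genes Rora and Bhlhe40, and Anxa2. Each passed in 6 or 7 of 13 other settings. Rora had sums of 331.6 and 341.5 in lymph node and 717.0, 717.7 and 736.8 in lung, and 646.8 and 638.7 in the IFNγ+ libraries (2.15-fold for lung over lymph node IL-4+, limma adjusted p = 0.00895). An intron region of Rora whose sequence is shown above (chr9:68969371-68969782) had densities of 1.09 and 1.29 in lymph node and 16.4, 5.60 and 9.50 in lung. A more open one (chr9:69304267-69304903) had 7.60 and 23.8 in lymph node and 89.2, 69.4 and 68.4 in lung. Rgs1 had sums of 99.0 and 124.9 in lymph node and 240.6, 313.9 and 319.8 in lung. The list also held 1 gene with a region in the other direction, Itgb1, where a region past the end of the gene, in an intron of Ccdc7a, had 5.14 and 4.14 in lymph node and 1.09, 0.809 and 1.01 in lung.

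Tfh genes lay on the other side. Of 16, 2 had a higher sum in lymph node and 0 in lung by limma, with a median of -0.34, and in 10 of the 16 both lymph node libraries were above all lung libraries, against 17.7% of all genes. Il21, the gene of the Tfh cytokine IL-21, had sums of 35.5 and 39.2 in lymph node and 21.3, 19.0 and 21.9 in lung (1.80-fold, limma adjusted p = 0.0477). It passed in 1 of 13 other settings. Pou2af1, the gene of a coactivator of OCT factors, had 64.1 and 72.8 in lymph node and 38.3, 30.9 and 26.2 in lung. It passed in 5 of 13 other settings. Its regions moved in both directions, with 1 called each way. Ascl2, Cxcr5 and Sh2d1a, which encodes the adaptor SAP, differed by -1.14, -1.03 and -1.02 on the log2 scale and did not pass the threshold.

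Single regions at Tfh genes passed where sums did not. The Cxcr5 intron region shown above (chr9:44533095-44533904) had densities of 35.8 and 33.6 in lymph node and 8.49, 11.4 and 11.1 in lung. A Tox2 intron region (chr2:163298889-163299335), in the gene of a factor that promotes Tfh cells, had 17.4 and 18.7 in lymph node and 3.00, 2.65 and 2.23 in lung (log2 fold change -2.79, SE 0.33, limma adjusted p = 0.00413). A region near Btla had 40.0 and 44.4 in lymph node and 10.9, 10.9 and 13.3 in lung. At Pdcd1, the gene of PD-1, the called region went the other way, with 5.36 in both lymph node libraries and 20.9, 17.96 and 19.2 in lung. At Bcl6 the sum was 186.1 and 125.9 in lymph node and 127.8, 147.7 and 182.8 in lung, and 0 of 13 regions were called by limma.

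The remaining T cell lists had few called sums. Il7r was the only member called among 10 lymph node homing and egress genes and was higher in lung, as were Havcr2, the gene of TIM-3, among 16 activation and inhibitory genes and Il2ra among 16 cytokine receptor genes. Il7r passed in 5 of 13 other settings, and Havcr2 and Il2ra in 7 each. At Ctla4 an intron region was higher in lymph node, with 15.9 and 14.0 against 4.63, 4.5 and 4.26 in lung. The 10 TCF-1 and stem-like factors, which include Tcf7 and Lef1, had 0 sums called by limma and a median of -0.04, and the 10 Th17 and Treg genes had 0 and a median of 0.20. The 16 AP-1 and bZIP factor genes also had 0 sums called by limma, with a median of 0.11. The largest difference among them was at Fosl2, with sums of 192.2 and 116.0 in lymph node and 232.2, 382.5 and 438.7 in lung (limma adjusted p = 0.129).

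Markers of cells that the sort should have removed were also read. B cell marker genes had regions at 7 of 8 members, with Ms4a1 at no region, and 0 sums called by limma. Their summed accessibility was between 301 and 322 normalized insertions in lymph node and between 243 and 265 in lung. Pax5, the B cell factor gene, had 49.1 and 52.5 in lymph node and 28.1, 24.4 and 17.4 in lung (limma adjusted p = 0.0590). Myeloid markers had regions at 7 of 9, with Lyz2 and Adgre1 at none, and 1 sum called, that of Cebpa, at 74.0 and 67.4 in lymph node and 34.3, 32.9 and 32.5 in lung. Their summed accessibility was between 334 and 512 in lymph node and between 324 and 446 in lung. Granulocyte and mast cell markers had regions at 5 of 9, with Mcpt8, Fcer1a, Prg2 and Epx at none, 0 sums called by limma, and summed accessibility between 30.7 and 41.0 in the 5 IL-4+ libraries. Lung structural markers had 0 of 9 sums called by limma and summed accessibility between 399 and 594 in lymph node and between 460 and 538 in lung. NK and CD8 T cell markers had regions at 7 of 8, with Ncr1 at none, and sums between 106 and 110 in lymph node, between 126 and 137 in lung IL-4+ and between 267 and 269 in IFNγ+ libraries, and Klrk1 and Klrd1 were called higher in lung. The part of such cells in the B cell, Cebpa, Klrk1 and Klrd1 differences was not tested. A few members made up much of some list sums. In lymph node replicate 1, Ager had 269.3 and Pecam1 234.4 of the 594 for lung structural markers. Cd68 had 294.9 of the 512 for myeloid markers, and Cd79a 137.6 of the 322 for B cell markers. Sums also take in regions within 10 kb, which neighbouring genes can share, so they do not measure numbers of these cells.

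**Figure D3:**
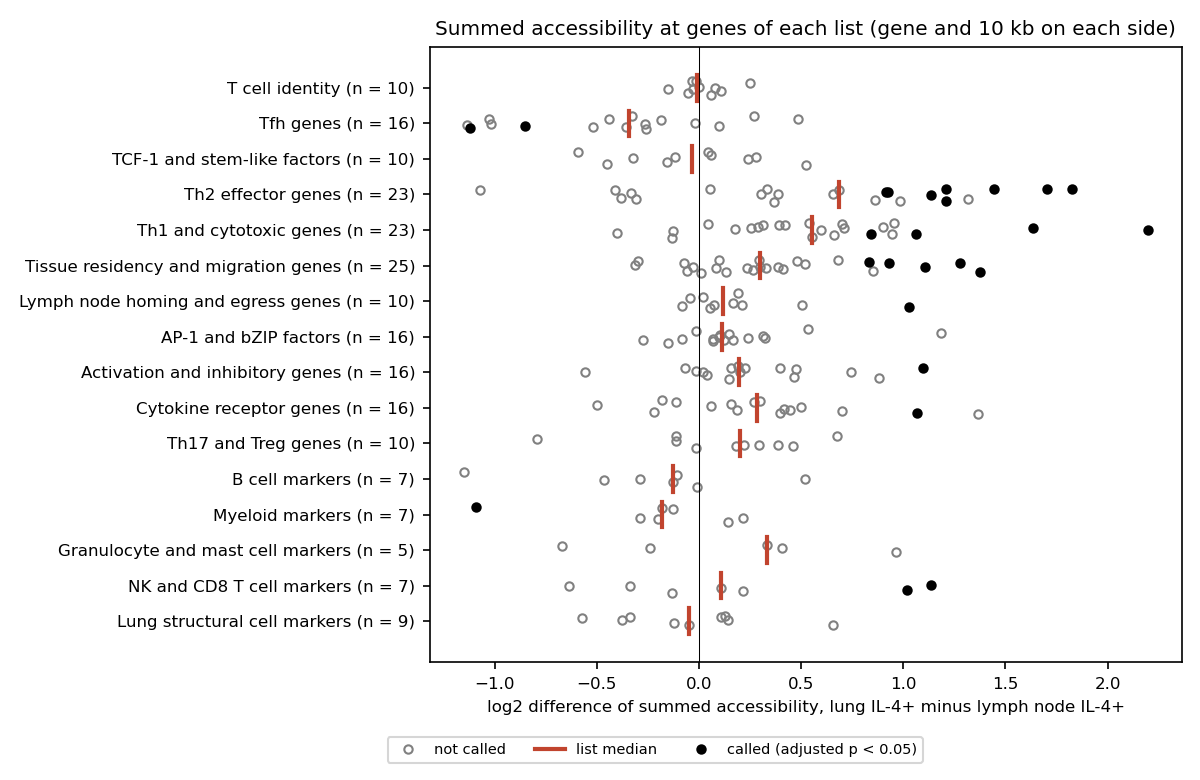
Log2 difference of summed accessibility between lung and lymph node IL-4+ cells (x axis) for each gene of 16 lists. Filled points passed a limma adjusted p of 0.05, open points did not, and vertical bars are list medians, which reach 0.69 for Th2 effector genes and -0.34 for Tfh genes.

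Motif matches in the central 200 bases differed between the lung and lymph node regions. These shares describe the called regions, with no test. The bZIP consensus TGANTCA was in 28.3% of the 1191 lung regions, 8.85% of the 791 lymph node regions and 9.60% of all regions. The letters AGATAA of the GATA family were in 21.9%, 9.23% and 10.3% in the same order, and RUNX (AACCACA) in 16.1%, 11.3% and 8.14%. Regions with both a bZIP and a GATA match, such as those near Smndc1 and Itprid2 shown above, made up 7.05% of the lung regions, 1.14% of the lymph node regions and 1.16% of all. TCF/LEF (ATCAAAG), the letters that TCF-1 prefers, was in 2.52% of the lung regions, 16.1% of the lymph node regions and 3.80% of all. Lymph node regions also held POU (ATGCAAAT) more often, at 3.54% against 1.21% of all, and ETS (AGGAAGT) at 15.7%, E-box (CAGCTG) at 15.3% and PRDM1 (GAAAGTG) at 6.32%, against 9.74%, 11.2% and 3.96% of all. The nuclear receptor half-site AGGTCA was in 17.9% of lung and 8.22% of lymph node regions against 12.1% of all, and the longer NR4A motif AAAGGTCA, which contains it, in 2.27%, 1.26% and 1.10%. EGR (GCGTGGG) was in 0.672% of lung and 2.91% of lymph node regions, against 1.79% of all. NF-kB (GGGANTTCC) was in 1.93% and 0.253%, against 1.15% of all. Without promoters the shares were near these, at 28.8% and 8.96% for bZIP against 10.9% of all non-promoter regions, and at 2.71% and 16.7% for TCF/LEF against 4.19%.

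Values for the remaining families follow. T-box (AGGTGTGA) was in 1.76% of lung and 0.506% of lymph node regions against 1.16% of all, and ETS:RUNX (GGATGTGGT), which overlaps the RUNX letters, in 1.76% and 0.506% against 0.727%. STAT (TTCNNNGAA) was in 7.30% and 6.32% against 6.17%, and NFAT (TGGAAAA) in 4.45% and 5.69% against 4.65%. KLF (CCACACCC) was in 1.60% and 1.77% against 2.23%, and the CTCF core (AGGGGGC) in 1.34% and 2.02% against 4.55%.

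**Figure D4:**
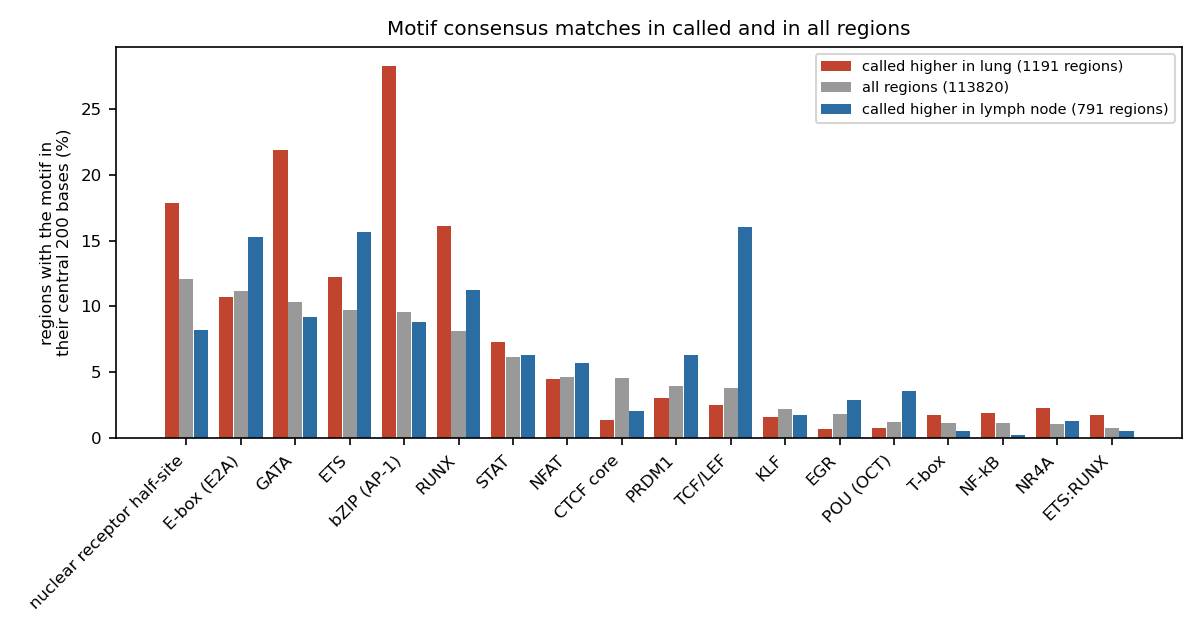
Percent of regions with a match to each of 18 motif families in their central 200 bases (y axis, from 0), for regions called higher in lung, all regions and regions called higher in lymph node. The bZIP bar reaches 28.3% in lung regions and the TCF/LEF bar 16.1% in lymph node regions.

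Over all regions that hold a motif, called or not, accessibility per library was set against regions of like GC content and level. Regions with TCF/LEF letters had mean log2 deviations of 0.11 and 0.27 in lymph node replicates 1 and 2 and of -0.06, -0.09 and -0.09 in lung replicates 1 to 3. The difference was -0.27 (exact two-sided permutation p = 0.1 over 3 and 2 libraries, the smallest this design allows). Regions with GATA letters had -0.06 and -0.02 in lymph node and 0.09, 0.06 and 0.06 in lung, a difference of 0.11 (exact permutation p = 0.1). Regions with the bZIP letters had -0.22 and -0.08 in lymph node and 0.27, 0.01 and -0.10 in lung, so that the tissues overlapped (exact permutation p = 0.3). The nuclear receptor half-site, at 0.10, and KLF, at 0.05, were higher in lung, and NFAT, at -0.08, and E-box, at -0.04, were lower, each at an exact permutation p of 0.1, without overlap of the libraries. The E-box difference changed sign, to 0.0046, when matches were searched in the whole region. With Benjamini-Hochberg adjustment over the 18 families, 0 passed 0.05 by this exact permutation test, which could not reach that threshold, and 0 had an unadjusted p below 0.05.

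**Figure D5:**
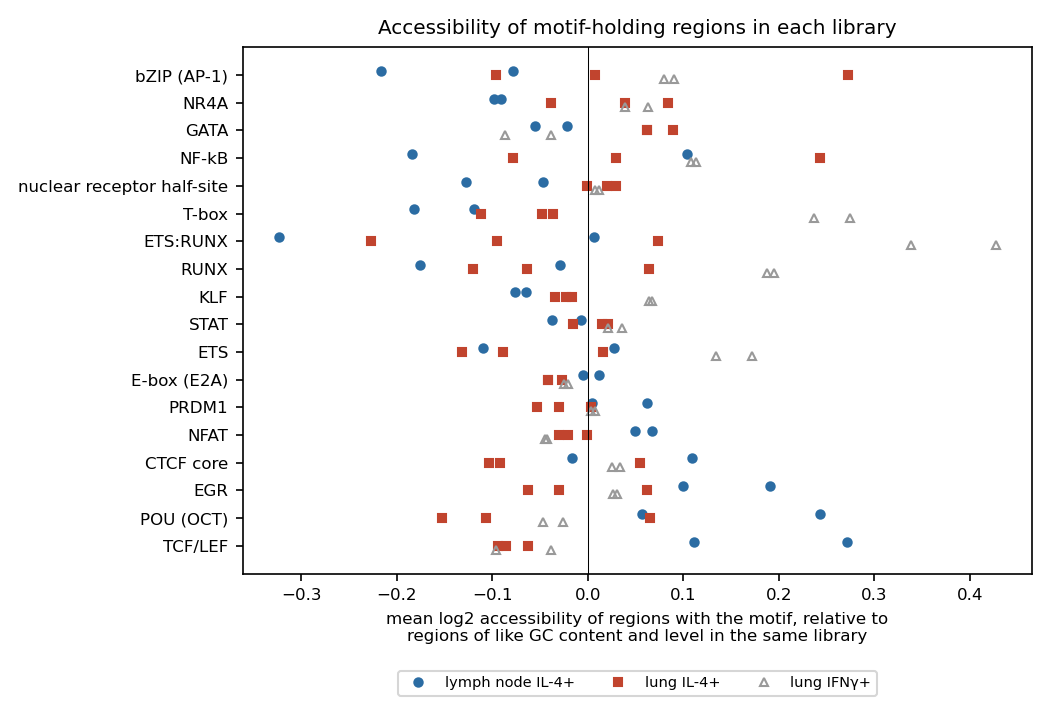
Mean log2 accessibility of regions with each motif in each library, relative to regions of like GC content and level in the same library (x axis). Circles are lymph node IL-4+, squares lung IL-4+ and triangles lung IFNγ+ libraries, and TCF/LEF and GATA show no overlap between the 2 IL-4+ groups.

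The libraries fell into 2 classes by the spread of insertions over regions, and each class held IL-4+ libraries of both tissues. Lymph node replicate 1 and lung replicates 2 and 3 had a narrow spread, with a log2 ratio of upper to lower quartile between 1.67 and 1.75, and lymph node replicate 2 and lung replicate 1 a wide spread, at 2.95 and 2.91. The lung minus lymph node difference was therefore computed in each class from separate libraries. Of the 4644 regions at least 3-fold higher in lung in the wide class, 81.1% were also higher in lung in the narrow class and 26.4% were at least 3-fold higher there, against 47.6% and 4.10% of all regions. Of the 3945 regions at least 3-fold higher in lymph node in the wide class, 84.9% had that direction in the narrow class and 28.4% reached 3-fold, against 52.4% and 3.33% of all. Starting from the narrow class, 4662 lung regions gave 82.1% and 26.3% in the wide class, and 3795 lymph node regions 79.2% and 29.5%. Over all 113820 regions, which share libraries within a class, Pearson's r of the differences was 0.44 and Spearman's rho 0.41. With the class as a covariate limma called 2436 regions higher in lung and 1580 higher in lymph node, which included 1169 of the 1191 and 751 of the 791. Both lung IFNγ+ libraries had a wide spread, at 3.09 and 3.05, while lung IL-4+ replicates 2 and 3 were narrow. Values of IFNγ+ and lung IL-4+ libraries therefore differ in class as well as in cells. The part of the class in those differences was not tested.

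Chromosome X moved with the same classes. Its mean log2 density relative to the autosomes was -0.84, -0.83 and -0.90 in lymph node replicate 1 and lung replicates 2 and 3, and 0.40 and 0.15 in lymph node replicate 2 and lung replicate 1. The IFNγ+ libraries had 0.23 and 0.26. Since 1 of 2 lymph node and 2 of 3 lung libraries were low, the median log2 fold change of the 2181 regions on X was -0.28, against -0.03 on the autosomes. On X, 8 regions were called higher in lung and 15 in lymph node. The sex of the mice is not given in the sources used here, and its part in the values of X-linked regions, such as those at Klhl4, Zcchc12, Elf4, Tex13c2, Cysltr1 and Sh2d1a, was not tested. In the narrow class, the Klhl4 promoter region differed by -2.70 on the log2 scale and the region near Elf4 by 4.31. The narrow libraries also entered the calls, so these differences are not a separate test. Near Elf4, lymph node replicate 1 had a rebuilt count of only 17 insertions.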

How the data were processed

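Per the study's methods and the submitters' processing notes, the authors aligned paired ATAC-seq reads to GRCm38 with Bowtie2 2.3.2, removed reads with a mapping quality under 10, called summits per replicate with MACS2 2.1.1, merged overlapping regions and normalized insertions per region with limma 3.38.3 in R 3.5.1. The deposited table holds log2 values per region and library, with no counts. The table was used as deposited, and 0 columns of samples outside the series were found. Depth was rebuilt from the rank of each value among the distinct values of its library, with region length removed, which gives lower bounds of 14005923 to 91681969 insertions per library, and this limits low regions.

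Regions were tested with limma 3.58.1 in R 4.3.3 on the log2 values of all 7 libraries with 1 mean per group and a mean-variance trend, and p-values were adjusted over all 113820 regions by Benjamini-Hochberg. Gene sums added linear accessibility over regions within a gene and 10 kb on each side (GENCODE M21 basic) and were tested on the log2 scale over 17021 genes. Motifs were matched exactly on both strands, and sequences were read from the GRCm38 reference. Summaries used Python 3.11.15, pandas 2.3.3, numpy 2.4.6, scipy 1.17.1 and matplotlib 3.10.9. The scripts were tested on simulated data. Named regions, promoters and genes are the 10 with the largest fold change per direction among those called (genes with at least 3 regions), the 10 genes with most called regions, and, in gene lists, the called members and the 3 largest differences among the others. Named regions also had to show no overlap between the tissues, which every called region met. Some further list members, such as Bcl6, Gata3 and Il4, are given besides. Locus regions named at list genes and regions picked for motifs were chosen after values were seen. The comparison, the gene lists and the motif families were chosen with earlier results of these data known, so they are not independent evidence. Alternatives covered scaling, GC content, filters, weights, spread class, replicate block, thresholds and leaving out each library. Some genes that the naming rule selects are not reported here.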

Additional observations from a re-analysis of the deposited data

How the results depend on the processing

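Counts are given for higher in lung and then higher in lymph node. Regions, 1191 and 791 as reported, came to 639 and 425 with only the 5 IL-4+ libraries, 2436 and 1580 with the spread class as covariate, 357 and 170 at an adjusted p under 0.01, 729 in lung with log2(density + 1) and 2016 in lung at a fold of at least 2. limma called 0 and 0 with the replicate block (2859 and 1934 at an unadjusted p under 0.05 and the same fold), with the replicate block and GC correction (2730 and 2141), without a mean-variance trend (2365 and 2140), and when testing against the fold itself (332 and 276). Leaving out 1 library gave 250 to 2308 and 125 to 1144. The lowest pair followed from leaving out the second lung IL-4+ library, 2308 and 297 from leaving out lymph node library 2, and 926 and 1144 from leaving out the first lung IL-4+ library. Omitting the third lung IL-4+ library gave 420 in lymph node, omitting an IFNγ+ library gave 713 and 424 or 683 and 400, and omitting lymph node library 1 gave 1011 and 539. Gene sums, 113 and 71, came to 4 and 1 with only the 5 IL-4+ libraries, 986 and 1613 with the spread class, 0 and 0 by limma with the replicate block (550 and 559 unadjusted), and 3 to 198 and 0 to 117 when 1 library was left out, highest without lymph node replicate 2. Median centring gave 147 and 49. Counts within gene lists moved too. With the spread class, limma called 15 and 2 of the 23 Th2 effector genes and 0 and 11 of the 16 Tfh genes. It called 12 and 1 of the 23 Th1 and cytotoxic genes, and 14 and 2 of the 25 tissue residency and migration genes. The 10 T cell identity genes had 0 and 0. These counts stand against 986 and 1613 of all 17021 genes in that model. The cause of these changes was not tested. The labels do not say whether a replicate number marks a mouse shared by lung and lymph node IL-4+ libraries. The block also joined IFNγ+ libraries to IL-4+ libraries of the same number. These came from a different reporter line, so the number cannot mark a shared mouse there. Deviations of same-numbered libraries correlated at -0.54 and -0.30, but these libraries also differ in spread class, so this does not settle whether the numbers pair them. Deviations of the 2 lymph node libraries from their mean are mirror images. Differently numbered pairs therefore gave 0.54 and 0.30, which add no separate evidence. None of the named regions and genes that were called reversed direction under any alternative. They were chosen mainly for large called differences and the alternatives used the same libraries, so this was largely fixed by the choice. Named list members with small differences could reverse. At Bcl6 the main log2 difference was -0.02. Without lymph node replicate 1, the lymph node sum left was 125.9, below the lung sums of 127.8, 147.7 and 182.8. The motif differences of RUNX, NF-kB, ETS, ETS:RUNX and E-box changed sign under at least 1 alternative.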
